A study of Rattus norvegicus with 18 samples.

Results

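The 9 genes described here belong to the oxidant defence under the transcription factor NRF2, and they were followed in rat liver after partial hepatectomy (PHx), blood loss and resuscitation. They are Nfe2l2, which encodes NRF2, and Nqo1, Gclc, Gclm, Osgin1, Txnrd1, Srxn1, Slc7a11 and Prdx1. The genes were chosen by name, as known parts of this programme, after earlier results of these data had been seen. A probe set entered when the array annotation gave it exactly 1 gene symbol. All 9 genes were found, with 1 probe set each, among 18166 genes with a single symbol and 36685 probe sets on the array.

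Total liver RNA of 18 adult male Sprague-Dawley rats was hybridised to the GeneChip Rat Gene 2.0 ST array in 6 groups of 3, and each rat had an array of its own. Naive rats had no surgery. The PHx group had 50% of the liver mass resected, and the bleeding group had the same resection and lost 3 ml of blood through a femoral artery cannula without resuscitation. The F-RBC, S-RBC and HAES groups were resected and bled in the same way and then received fresh red blood cells, red blood cells stored for 7 days, or 10% HAES, a starch plasma expander. Livers with PHx were taken on day 1, so these arrays cover a single time after surgery. The labels name no sham-operated group, and the transfused groups differ from the bleeding group both in volume and in red cells. The arrays measured whole liver, in which fewer cells of a type and less RNA per cell cannot be told apart.

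NRF2 is held at a low level by KEAP1, which hands it to a ubiquitin ligase. Oxidants and electrophiles that react with KEAP1 spare NRF2, which then pairs with small MAF proteins and binds antioxidant response elements near its target genes. Its targets make glutathione, reduce peroxides and thioredoxin, import cystine and detoxify quinones, and hepatocytes carry much of this activity in the liver. NRF2 is controlled largely at the level of the protein, which the arrays did not measure.

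The promoter windows of the genes whose levels moved together, and of the gene whose window held the most motif matches, are shown first. Each is the RefSeq sequence of the GRCr8 build, 250 bases before and 50 after the start used in the promoter table, 5′ to 3′ in the direction of the gene. Capitals mark matches on either strand to TGACNNNGC, the core of the antioxidant response element, or to its variant TGAGNNNGC.
Gclc, chr8:87510226-87510525, plus strand: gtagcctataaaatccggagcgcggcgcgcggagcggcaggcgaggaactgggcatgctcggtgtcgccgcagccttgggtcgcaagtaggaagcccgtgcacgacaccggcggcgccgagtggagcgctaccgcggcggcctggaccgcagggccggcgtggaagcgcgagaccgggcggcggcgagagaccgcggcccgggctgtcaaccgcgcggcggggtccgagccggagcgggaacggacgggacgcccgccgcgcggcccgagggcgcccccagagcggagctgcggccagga
Gclm, chr2:213031885-213032184, plus strand: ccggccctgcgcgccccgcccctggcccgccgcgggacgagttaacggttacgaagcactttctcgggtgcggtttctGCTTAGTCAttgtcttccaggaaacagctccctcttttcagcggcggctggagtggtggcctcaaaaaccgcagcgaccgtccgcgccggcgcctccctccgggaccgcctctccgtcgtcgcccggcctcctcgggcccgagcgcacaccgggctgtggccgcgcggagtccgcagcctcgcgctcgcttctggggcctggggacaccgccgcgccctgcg
Nfe2l2, chr3:81028950-81029249, minus strand: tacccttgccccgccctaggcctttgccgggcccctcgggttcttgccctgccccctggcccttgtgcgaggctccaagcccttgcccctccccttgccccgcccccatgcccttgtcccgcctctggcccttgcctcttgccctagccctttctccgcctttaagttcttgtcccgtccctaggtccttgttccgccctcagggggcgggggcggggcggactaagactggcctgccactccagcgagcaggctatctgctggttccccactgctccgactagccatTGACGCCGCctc
Osgin1, chr19:64393651-64393950, plus strand: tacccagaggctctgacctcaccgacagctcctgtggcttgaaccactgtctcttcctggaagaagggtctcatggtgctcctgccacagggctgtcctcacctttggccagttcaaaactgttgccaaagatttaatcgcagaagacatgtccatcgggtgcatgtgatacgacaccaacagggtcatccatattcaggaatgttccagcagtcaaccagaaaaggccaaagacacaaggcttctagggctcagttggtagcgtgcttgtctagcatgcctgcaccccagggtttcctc
Srxn1, chr3:161064562-161064861, plus strand: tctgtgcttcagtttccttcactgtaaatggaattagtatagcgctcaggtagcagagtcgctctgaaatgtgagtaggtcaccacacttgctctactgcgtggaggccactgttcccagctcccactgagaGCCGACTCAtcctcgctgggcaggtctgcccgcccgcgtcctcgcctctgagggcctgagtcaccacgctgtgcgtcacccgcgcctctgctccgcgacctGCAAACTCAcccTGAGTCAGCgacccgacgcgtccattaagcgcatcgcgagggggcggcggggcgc
The motif TGACNNNGC was present in 12.1% of the 33469 rat promoter windows of this length, TGAGNNNGC in 17.2%, and either of them in 27.1%. TGAGTCA, an AP-1 motif that can overlap TGAGNNNGC, was present in 4.63%. The window of Nfe2l2 held 1 TGACNNNGC match, TGACGCCGC, starting 38 bases after the start. The window of Gclm held 1, read here from the other strand as GCTTAGTCA, at −172. That of Srxn1 held 3 TGAGNNNGC matches, at −118, −17 and −5, and the last of these contains TGAGTCA. Prdx1 and 1 of 2 windows of Txnrd1 held 1 TGACNNNGC match each, whereas Gclc, Osgin1, Nqo1 and Slc7a11 held no match to either form. The start used in the table lies inside the annotated span of Osgin1 by 13565 bases, and also inside that of Nfe2l2 (2166 bases), Slc7a11 (296) and Txnrd1, so the outermost starts of these genes were not searched. For Gclc it lies 225 bases inside, so the outermost start fell within the window, with little sequence before it. The windows of Gclc and Gclm were rich in G and C, at 76.7% and 72%, against a median of 51.7% over all windows. A match is a stretch of letters and not a bound site, and the windows leave out distant elements.

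The deposited intensities were tested as log2(intensity + 16) with limma over the 18 arrays, and an adjusted p under 0.05 (Benjamini-Hochberg over all 36685 probe sets) was called past the threshold. All fold changes below are on this scale, which understates the change of dim genes. Array medians ranged from 16.1 to 23 in intensity. They were 16.1 to 18.6 in naive rats and 20.9 to 22.7 in F-RBC rats, without overlap. No further normalization was applied, so fold changes between these groups include this difference in brightness. By mean level, 8 of the 9 genes stood at the 71.3 percentile of all probe sets or above, whereas Slc7a11 stood at 40.2, near the array medians. Correlations of S-RBC replicate 1 with the others were 0.911 to 0.938, whereas every other array had a best correlation of at least 0.9675. The 9 arrays of the F-RBC, S-RBC and HAES groups lay on 1 side of the 9 other arrays in 269 probe sets, of which 0 were of these genes. Hepatocyte markers had summed intensities of 15682 to 19513 on all arrays.

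Of the 9 genes, 4 differed over the 6 groups in limma's moderated F test, Gclm (adjusted p = 0.00794), Gclc (0.0129), Osgin1 (0.0235) and Nfe2l2 (0.0426), where 6.59% of all probe sets did so. Gclc and Gclm passed in all 18 fits that left out 1 array and Osgin1 in 16, but Nfe2l2 passed in only 4 of them, and it did not pass after median centring or with the replicate number as a block. Nqo1 (0.0738), Srxn1 (0.201), Slc7a11 (0.291), Prdx1 (0.365) and Txnrd1 (0.745) did not pass. The genes were chosen with earlier results of these data known, so counts beside the share of all probe sets do not test them as a set. Over the 15 pairwise comparisons there were 9 calls in 135 tests of these genes (6.67%), where 1.48% of all probe set tests were calls, and 11.8% of probe sets passed in at least 1 comparison. All 9 were higher in the first group named, as were 5616 of the 8140 calls over all probe sets. F-RBC rats had 3 genes higher than naive rats, HAES rats had 1 gene higher than naive rats, and HAES rats had Gclc and Gclm higher than both PHx and bleeding rats, and F-RBC rats had Gclc higher than bleeding rats. Txnrd1, Srxn1, Slc7a11 and Prdx1 had no call. Groups of 3 arrays often lie apart, and 11.9% to 32.7% of all probe sets did not overlap, depending on the 2 groups compared. The median log2 fold change over the 9 genes was 0.20 in F-RBC and 0.31 in HAES against naive rats, beside 0.14 and 0.05 over all probe sets. In HAES rats it was 0.05 against PHx rats and −0.11 against bleeding rats, beside 0.02 and −0.01.

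**Figure D1:**
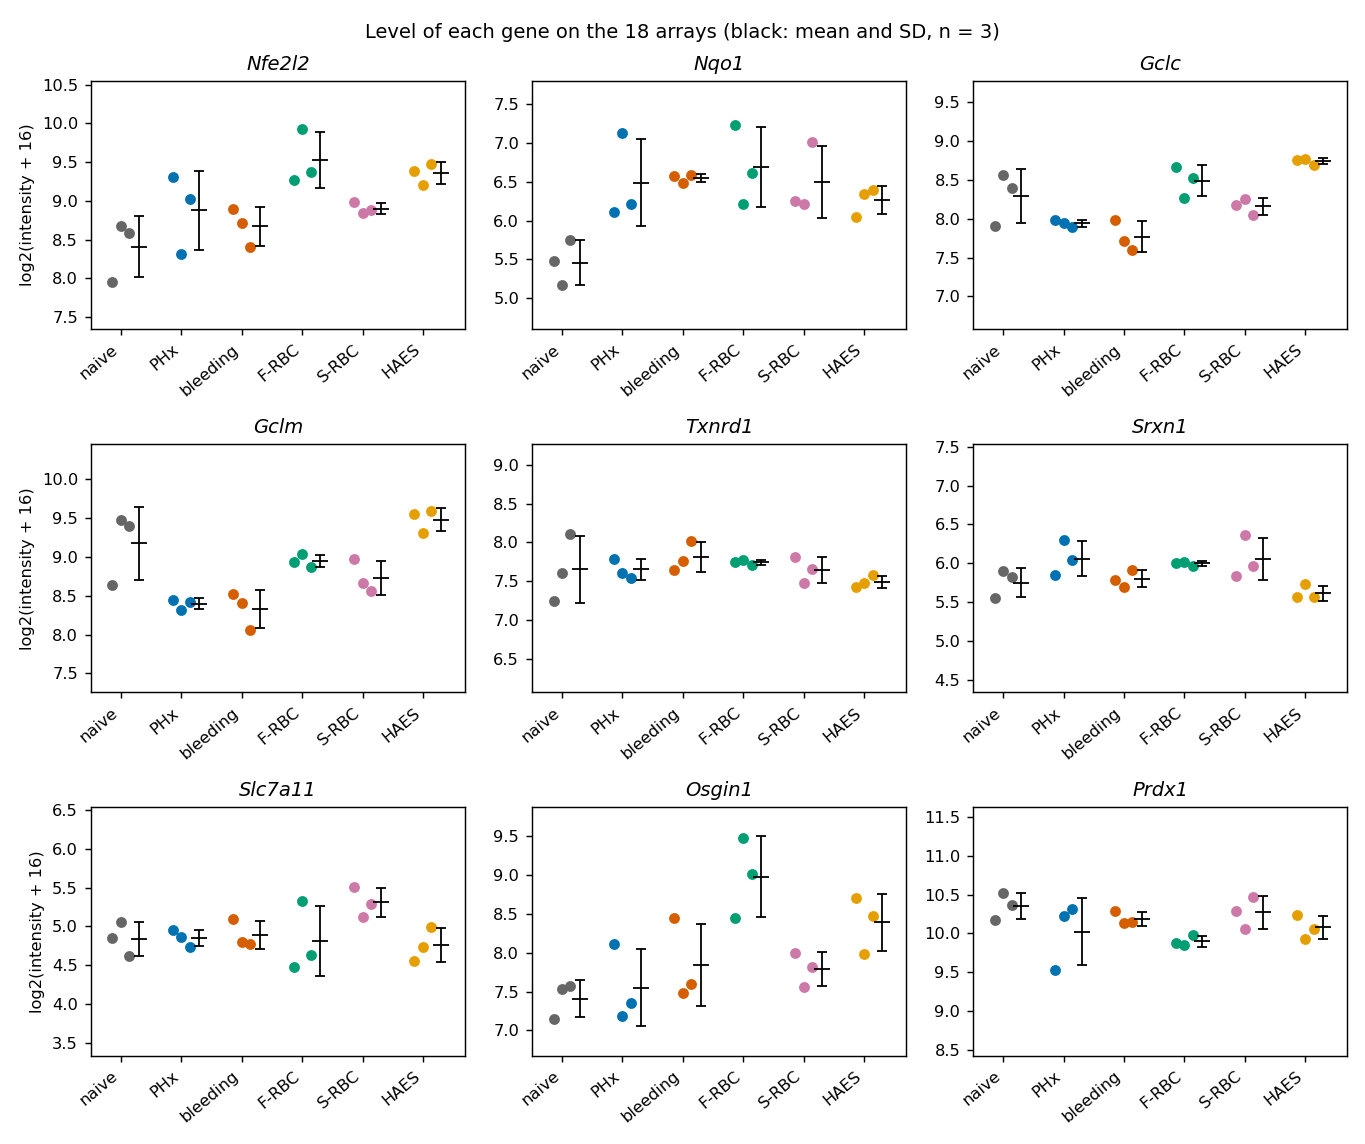
Level of each of the 9 genes as log2(intensity + 16) on the vertical axis, with 1 point per array and black bars for the mean and SD of the 3 arrays of a group. Every panel spans the same number of log2 units, and Osgin1 and Nfe2l2 are highest in F-RBC rats, Gclc and Gclm in HAES rats, and Nqo1 is lowest in naive rats.

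Nfe2l2, the gene of the transcription factor itself, was higher in F-RBC and HAES livers than in naive livers. Its intensity was 233, 394 and 367 in naive rats, 620, 304 and 503 in PHx rats, and 458, 403 and 323 in bleeding rats. It was 602, 962 and 648 in F-RBC rats, 489, 446 and 456 in S-RBC rats, and 654, 577 and 697 in HAES rats. The F-RBC and HAES arrays were all above the naive and bleeding arrays, and PHx replicate 1 reached into their range. The mean log2 level was 8.41 ± 0.39 in naive rats, 9.53 ± 0.36 in F-RBC rats and 9.36 ± 0.14 in HAES rats (SD, n = 3). The F-RBC level was 2.17-fold the naive level (log2 fold change 1.12, SE 0.24, limma adjusted p = 0.0147), in a comparison in which 6.17% of probe sets were past the threshold. The HAES level was 1.94-fold the naive level (log2 fold change 0.95, SE 0.24, limma adjusted p = 0.0459), where 2.62% of probe sets passed. The HAES call was lost when any 1 of the 6 arrays was left out (limma adjusted p of 0.0554 to 0.217), and the F-RBC call was lost without naive replicate 1 (0.0753) or F-RBC replicate 2 (0.0804).

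S-RBC rats lay between these groups for Nfe2l2, at 8.90 ± 0.07. Their 3 arrays were above all naive arrays and below all F-RBC arrays, but neither difference passed. Against naive rats the log2 fold change was 0.50 (95% confidence interval −0.02 to 1.01, limma adjusted p = 0.3), in a comparison where 0 of the 9 genes and 3.37% of probe sets passed. Against F-RBC rats it was −0.62 (−1.14 to −0.11, limma adjusted p = 0.186). PHx and bleeding rats, at 8.88 ± 0.51 and 8.67 ± 0.25, overlapped both naive and S-RBC rats.

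Osgin1, an oxidative stress response gene that restrains growth in cultured cells, had the largest difference among the 9 genes. Its intensity was 125, 169 and 173 in naive rats, 261, 129 and 147 in PHx rats, and 333, 163 and 178 in bleeding rats. It was 333, 697 and 501 in F-RBC rats, 240, 173 and 209 in S-RBC rats, and 400, 236 and 341 in HAES rats. The F-RBC arrays were all above the naive, PHx and S-RBC arrays, and their lowest value was close to that of bleeding replicate 1. On the log2 scale the mean rose from 7.41 ± 0.24 in naive rats to 8.98 ± 0.52 in F-RBC rats (SD, n = 3), a 2.97-fold difference (log2 fold change 1.57, SE 0.30, limma adjusted p = 0.00816). This call was lost without F-RBC replicate 2 (log2 fold change 1.32, limma adjusted p = 0.0502). F-RBC against PHx rats (1.43, limma adjusted p = 0.075, where 0.172% of probe sets passed) and against bleeding rats (1.14, 0.0792) did not pass, nor did HAES against naive rats (0.97, 0.112). The groups did not overlap in these comparisons, but neither did 24.7%, 24% and 18.2% of all probe sets, in that order.

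Stored against fresh red cells gave no call among the 9 genes, where 0.496% of all probe sets passed. At an unadjusted p under 0.05, 3 of the 9 genes and 6804 of all probe sets differed. Osgin1 came closest, 2.28-fold lower in S-RBC than in F-RBC rats (log2 fold change −1.19, 95% confidence interval −1.83 to −0.54, limma adjusted p = 0.0751). The 3 S-RBC arrays lay below the 3 F-RBC arrays for Osgin1, Nfe2l2 and Gclc and above them for Prdx1, so 4 of 9 genes did not overlap, where 21.1% of probe sets did not. For Gclc the nearest arrays were almost level, S-RBC replicate 2 at 291 and F-RBC replicate 2 at 293. Slc7a11 had a log2 fold change of 0.50 (0.09 to 0.91, limma adjusted p = 0.187), and its groups overlapped. With an offset of 1 or 64 in place of 16 this difference was 1.01 or 0.19. For Nqo1 the difference was −0.19 (−0.80 to 0.42) and for Gclm −0.22 (−0.63 to 0.20), and these intervals hold changes in either direction. The median over the 9 genes was −0.19, beside −0.07 over all probe sets.

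Nqo1, the quinone reductase often read as a marker of NRF2 activity, was lower in naive liver than in every other liver. Its intensity was 28, 20 and 38 in naive rats, 53, 124 and 58 in PHx rats, and 79, 74 and 80 in bleeding rats. It was 134, 58 and 82 in F-RBC rats, 60, 58 and 114 in S-RBC rats, and 50, 66 and 68 in HAES rats. The 3 naive arrays lay below all 15 other arrays, which was so of no other gene among the 9, and 1.8% of all probe sets set the naive arrays apart on 1 side. The difference from naive rats passed only for F-RBC rats, at 2.33-fold (log2 fold change 1.22, SE 0.29, limma adjusted p = 0.0219). That call passed in only 2 of 6 fits that left out 1 array (limma adjusted p of 0.0269 to 0.0782). It was also lost under quantile normalization (0.0598) and median centring (0.0531). The log2 fold change from naive rats was close to this in S-RBC rats, at 1.03 (limma adjusted p = 0.0597). It was 1.08 in bleeding rats (0.0883), 1.02 in PHx rats (0.164) and 0.80 in HAES rats (0.175).

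As a description without a test, chosen after its values were seen, the mean Nqo1 level of the 5 groups with PHx was 6.50 against 5.46 in naive rats on the log2 scale, a difference of 1.03. Among the 5 groups with PHx themselves, Nqo1 log2 fold changes ran from −0.42 to 0.20 and 0 of 10 comparisons passed in limma, also at an unadjusted p under 0.05.

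Gclc and Gclm, the catalytic and the modifier subunit of glutamate cysteine ligase, which makes the first and rate-limiting step of glutathione synthesis, were highest in HAES rats. The intensity of Gclc was 223, 365 and 320 in naive rats, 237, 231 and 221 in PHx rats, and 238, 194 and 177 in bleeding rats. It was 392, 293 and 354 in F-RBC rats, 275, 291 and 248 in S-RBC rats, and 416, 422 and 398 in HAES rats. The HAES arrays lay above all 15 other arrays, which 0.477% of probe sets did in either direction, and the closest was F-RBC replicate 1.

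For Gclm the intensity was 383, 700 and 661 in naive rats, 334, 303 and 325 in PHx rats, and 351, 325 and 250 in bleeding rats. It was 476, 509 and 452 in F-RBC rats, 489, 387 and 363 in S-RBC rats, and 733, 621 and 756 in HAES rats. The HAES arrays were above all arrays of the other groups with PHx, while 2 of the 3 naive arrays reached into the HAES range.

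HAES livers had 2.13-fold the Gclm level of PHx livers (log2 fold change 1.09, SE 0.20, limma adjusted p = 0.00834) and 1.74-fold the Gclc level (0.80, SE 0.17, 0.0172), where 2.28% of probe sets passed. Against bleeding livers the HAES level was 2.23-fold for Gclm (log2 fold change 1.16, SE 0.20, limma adjusted p = 0.007) and 1.97-fold for Gclc (0.98, SE 0.17, 0.00771), where 1.81% passed. The means on the log2 scale were 9.48 ± 0.15 for Gclm and 8.74 ± 0.04 for Gclc in HAES rats, 8.40 ± 0.07 and 7.94 ± 0.05 in PHx rats, and 8.33 ± 0.24 and 7.77 ± 0.20 in bleeding rats (SD, n = 3). Gclm against PHx rats was past the threshold in all 6 fits that left out 1 array (limma adjusted p of 0.0185 to 0.0438). Without bleeding replicate 3 both calls against bleeding rats were lost (limma adjusted p = 0.0575 for Gclm and 0.0606 for Gclc), and Gclc against PHx rats was lost in 4 of 6 such fits (up to 0.0781).

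F-RBC rats also had a higher Gclc level than bleeding rats, by 1.65-fold (log2 fold change 0.73, SE 0.17, limma adjusted p = 0.0444), where 1.21% of probe sets passed. This call was lost when any 1 of the 6 arrays was left out (limma adjusted p of 0.0542 to 0.213). Of the 9 genes, 6 did not overlap between F-RBC and bleeding rats, where 24% of probe sets did not. These were Nfe2l2, Gclc, Gclm, Srxn1 and Osgin1, with F-RBC arrays above bleeding arrays, and Prdx1, with F-RBC arrays below. For Osgin1 the nearest arrays of the groups were both at 333 after rounding. In this comparison 1 of 4 hepatocyte, 1 of 3 endothelial and 1 of 5 stellate cell markers were higher in F-RBC rats, and their part in the result was not tested.

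Bleeding and PHx livers had lower mean levels of Gclm than naive livers, without passing. The log2 fold change was −0.85 for bleeding against naive rats (95% confidence interval −1.26 to −0.43, limma adjusted p = 0.0506), where 0.919% of probe sets passed. It was −0.78 for PHx against naive rats (−1.19 to −0.37, limma adjusted p = 0.106), where 0.346% passed. Naive replicate 1 was the lowest of its group for Gclm, at 383, and without it both differences passed, at −1.11 (limma adjusted p = 0.00642) and −1.05 (0.0166). Gclc gave −0.52 (0.15) and −0.35 (0.482) in these comparisons. Bleeding and PHx rats differed from each other by −0.07 for Gclm and −0.17 for Gclc, and 0 of 36685 probe sets passed between these groups with limma, with 4111 at an unadjusted p under 0.05, of which 0 were of these 9 genes.

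Among the 3 resuscitated groups 0 of the 9 genes passed in limma. HAES and S-RBC rats did not overlap for 5 of the 9 genes, where 11.9% of probe sets did not overlap and 0.00545% passed, with 4137 at an unadjusted p under 0.05. Nfe2l2 (log2 fold change 0.45), Gclc (0.58) and Gclm (0.75, 95% confidence interval 0.34 to 1.16, limma adjusted p = 0.191) were on the higher side in HAES rats, and Srxn1 (−0.44) and Slc7a11 (−0.55) on the lower. HAES and F-RBC rats did not overlap for 4 of the 9, where 16.4% did not overlap and 0 probe sets passed, with 4257 at an unadjusted p under 0.05. These were Gclc (0.25) and Gclm (0.53), higher in HAES rats, and Txnrd1 (−0.25) and Srxn1 (−0.38), lower. At an unadjusted p under 0.05, 4 of the 9 genes differed between HAES and S-RBC rats and 2 between HAES and F-RBC rats. S-RBC rats did not overlap bleeding rats for Gclc (0.40), Gclm (0.40) and Slc7a11 (0.42), where 24.2% of probe sets did not overlap and 2.06% passed, and 0 of the 9 genes passed. S-RBC against PHx rats likewise gave 0 of the 9 genes, where 0.733% of probe sets passed, and 1 of the 9 and 5188 of all probe sets had an unadjusted p under 0.05.

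**Figure D2:**
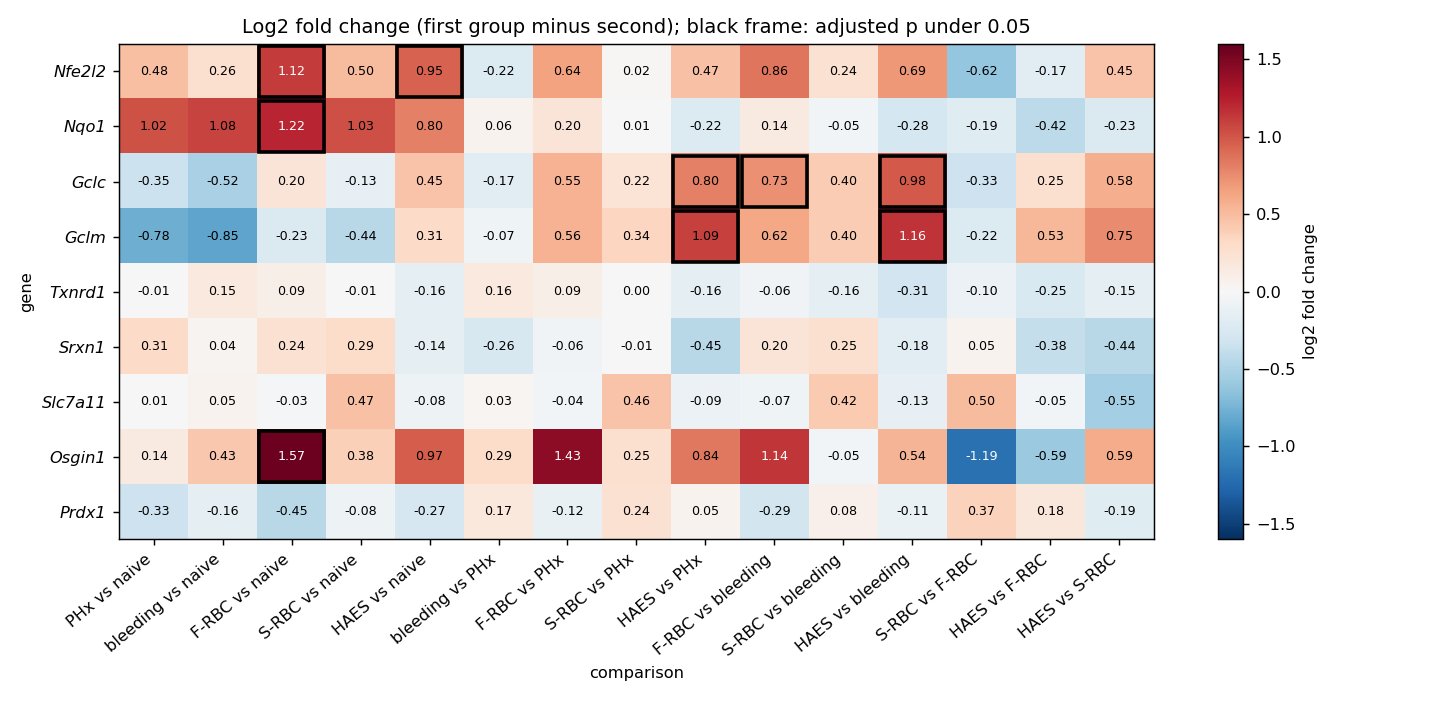
Log2 fold change of each gene (rows) in each of the 15 comparisons (columns), as the first group minus the second, with red for higher and blue for lower in the first group and a black frame where the limma adjusted p was under 0.05. The 9 framed cells are all red, and the highest and the lowest value are those of Osgin1, 1.57 in F-RBC against naive rats and −1.19 in S-RBC against F-RBC rats.

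Some recruited macrophage and neutrophil markers were lower in HAES than in PHx rats, the comparison in which Gclc and Gclm were higher. Of 7 Kupffer cell markers and of 7 B, T and NK cell markers 0 passed there, and 1.07% of all probe sets passed as lower. Between HAES and PHx rats, 3 of 6 recruited macrophage markers, 2 of 6 neutrophil markers, 1 of 3 endothelial markers and 1 of 5 cholangiocyte markers were lower in HAES rats, with Spp1 in both the macrophage and the cholangiocyte list. The summed intensity of the recruited macrophage markers was 652 to 2753 in PHx rats and 304 to 321 in HAES rats, and that of the neutrophil markers 199 to 312 and 82 to 99. The hepatocyte markers summed to 16337 to 17207 in PHx rats and 15682 to 17992 in HAES rats, with 0 of 4 past the threshold. Against bleeding rats, whose neutrophil sum was 131 to 272, 1 of 6 neutrophil markers was lower in HAES rats and 0 of 6 recruited macrophage markers passed. In that comparison 0.66% of all probe sets passed as lower. In F-RBC against naive rats 1 of 4 hepatocyte markers was lower and 1 of 3 endothelial markers higher. Of all probe sets, 1.28% passed there as lower and 4.9% as higher. The part of these cell types in the levels of the 9 genes was not tested, and 0 measured markers were under an intensity of 1 in every group.

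Txnrd1, Srxn1, Slc7a11 and Prdx1 passed in 0 of 15 limma comparisons each, and at an unadjusted p under 0.05 in 0, 3, 5 and 1 of them. Of all probe set tests, 15.1% had an unadjusted p under 0.05. Txnrd1, the cytosolic enzyme that reduces thioredoxin, had intensities of 135 to 259 in naive rats and 156 to 208 in F-RBC, S-RBC and HAES rats, and its log2 fold changes ran from −0.31 to 0.16. Srxn1, which repairs overoxidised peroxiredoxins, had 30.7 to 43.7 in naive rats, 41.6 to 62.7 in PHx rats and 31 to 36.9 in HAES rats. Its HAES arrays were below all PHx, F-RBC and S-RBC arrays, with a log2 fold change of −0.45 against PHx rats (95% confidence interval −0.78 to −0.12, limma adjusted p = 0.161).

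Slc7a11, the cystine carrier of the cystine and glutamate exchanger, was dim. Its intensity was 29.5, 18.8 and 23.2 in S-RBC rats and 7.4, 10.6 and 15.8 in HAES rats, while F-RBC replicate 2 stood at 24.2 between 6.3 and 8.8 of its group. The S-RBC arrays were above all naive, PHx, bleeding and HAES arrays, with log2 fold changes of 0.42 to 0.47 against naive, PHx and bleeding rats and limma adjusted p from 0.215 to 0.298. Values at this level lie near the array medians, and the offset of 16 shrinks their differences.

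Prdx1, an abundant peroxiredoxin that reduces hydrogen peroxide, had intensities of 1139, 1448 and 1297 in naive rats, 917, 907 and 997 in F-RBC rats and 1233, 1042 and 1400 in S-RBC rats. The F-RBC arrays were below the naive, bleeding and S-RBC arrays, where 32.7%, 24% and 21.1% of all probe sets did not overlap. The log2 fold change of F-RBC against naive rats was −0.45 (95% confidence interval −0.82 to −0.08, limma adjusted p = 0.133), so Prdx1 stood lower in the group in which Nfe2l2, Nqo1 and Osgin1 stood higher, without passing.

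Of 36 pairs of these genes, 2 were correlated over the 18 arrays after adjustment for the number of pairs. The permutations shuffled all 18 arrays across the 6 groups, so group differences shared by 2 genes enter these p-values. Correlations around the group means were not tested. Gclc and Gclm had a Pearson correlation of 0.89 (permutation p = 1e-05, the smallest that 100000 permutations give, and 0.00036 after Benjamini-Hochberg adjustment) and a Spearman correlation of 0.89 (permutation p = 1e-05, adjusted 0.00036). The correlation was 0.86 without the 2 arrays farthest from the median of Gclc, and 0.69 around the group means. Nfe2l2 and Osgin1 had a Pearson correlation of 0.87 (permutation p = 2e-05, adjusted 0.00036) and a Spearman correlation of 0.86 (permutation p = 3e-05, adjusted 0.00054), 0.80 without the 2 farthest arrays and 0.77 around the group means. Both genes also followed the array median, at 0.59 for Nfe2l2 and 0.64 for Osgin1, whereas Gclc and Gclm did so at 0.16 and 0.04. The part of array brightness in the Nfe2l2 and Osgin1 correlation was not tested. Nfe2l2 and Nqo1 had a Pearson correlation of 0.18 (permutation p = 0.479, adjusted 0.896) and a Spearman correlation of 0.04 (permutation p = 0.882, adjusted 0.954). For this pair the correlation was 0.01 without the 2 farthest arrays and −0.63 around the group means. No pair other than the first 2 passed the adjustment.

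**Figure D3:**
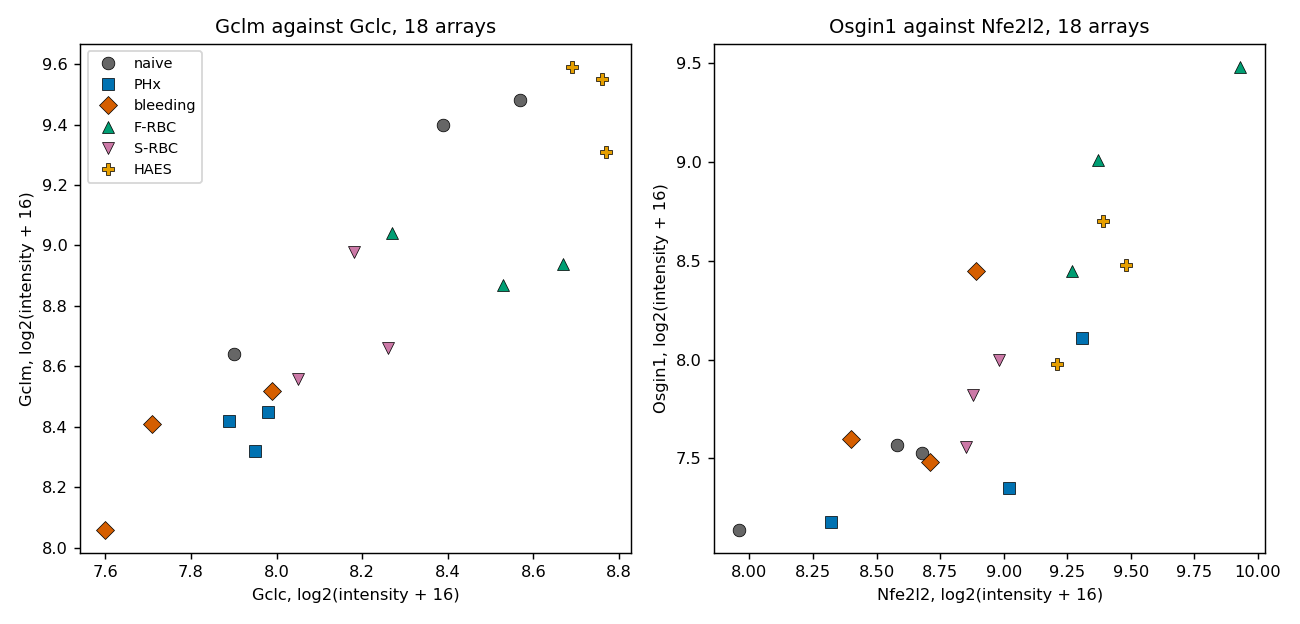
Gclm against Gclc (left) and Osgin1 against Nfe2l2 (right), each as log2(intensity + 16) with 1 point per array and a colour and marker per group. HAES arrays lie at the upper right for Gclc and Gclm, with PHx and bleeding arrays at the lower left, and F-RBC replicate 2 is the uppermost point for Nfe2l2 and Osgin1.

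By their levels over the 18 arrays, the genes most like each of the 9 were sought among 17397 named genes, as a description without a test. Nfe2l2 was most like Flvcr2 (r = 0.903), Frrs1 (0.899) and Lynx1 (0.892), and Osgin1 most like Krtap10l2 (0.894), Meis1 (0.881) and Cuedc1 (0.87). Gclc and Gclm shared Sox5 as their nearest gene, at 0.907 and 0.887. The next were Galm (0.905) and Cd59b (0.888) for Gclc, and Lonp2 (0.886) and Arl6ip1 (0.883) for Gclm. Nqo1 was most like Mst1r (0.813), Fgl1 (0.805) and Slc13a5 (0.799). Txnrd1 was most like Fdcsp (0.828), Srxn1 most like Ebna1bp2 (0.841), Slc7a11 most like Fbxl15 (0.847) and Prdx1 most like Cops2 (0.907), and the next genes after these had values of 0.791 to 0.865. The best of 17397 correlations is high by selection.

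The other genes of the pathway were read from 6 lists of 77 genes, of which 70 were measured with a single symbol. These lists too were chosen with earlier results of these data known, so their counts are a description and not a test of the lists. In the F test 16 of the 70 passed, beside 6.59% of all probe sets. In at least 1 pairwise comparison 23 passed, with 48 calls in all, and the counts of genes that passed in the lists below are to be read against the 11.8% of all probe sets that did so. Of the 12 regulators of NRF2, which include Keap1, its binding partner Mafg and the competing repressor Bach1, 0 passed in the F test or in any pairwise limma comparison, although 16 of 180 tests of them (8.89%) had an unadjusted p under 0.05, beside 15.1% of all probe set tests. Their median log2 fold change was −0.04 in F-RBC and −0.10 in HAES against naive rats, beside 0.14 and 0.05 over all probe sets.

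Genes that supply NADPH, the reductant that glutathione and thioredoxin reductases use, passed only as lower. Tkt, the transketolase of the pentose phosphate pathway, was lower than in naive rats by −0.61 in F-RBC (limma adjusted p = 0.0258), −0.90 in S-RBC (0.00334) and −0.95 in HAES rats (0.00207) on the log2 scale. Its intensity was 193 to 238 in naive rats, 89.3 to 119 in S-RBC rats and 92.3 to 125 in HAES rats. Malic enzyme Me1 was lower in F-RBC than in naive rats (−0.76, limma adjusted p = 0.0197), and Taldo1 and Tkt were lower in HAES than in PHx rats (−0.75 and −0.60, limma adjusted p = 0.0497 and 0.0456). The other 3 measured genes of the 6 did not pass.

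Of 13 measured genes of glutathione handling, 4 passed, all as higher. Glrx, a glutaredoxin that reduces protein and glutathione mixed disulphides, was higher in HAES than in naive rats (log2 fold change 1.28, limma adjusted p = 0.0135) and bleeding rats (1.31, 0.0182). Cth, which makes cysteine from cystathionine, was higher than in bleeding rats in F-RBC (0.98, limma adjusted p = 0.0113) and HAES rats (0.75, 0.0371), and Oplah, which recovers glutamate from oxoproline, in HAES rats (0.87, 0.0235). Chac1, which breaks glutathione down, was higher in S-RBC than in naive rats (0.73, limma adjusted p = 0.03). In HAES against bleeding rats, where Gclc and Gclm were higher, 3 of the 13 were higher and 0 lower. Of all probe sets, 1.15% passed there as higher and 0.66% as lower. The median of the 13 was 0.10 beside −0.01 over all probe sets. Of 6 fits that left out 1 array, the call of Glrx passed in 3, that of Oplah in 2 and that of Cth in 0.

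Of 17 measured genes that remove peroxide and superoxide or act with thioredoxin, 8 passed, in both directions. Sod2, the mitochondrial superoxide dismutase, was higher in S-RBC than in naive rats (1.38, limma adjusted p = 0.00534) and lower in HAES than in PHx (−1.16, 0.0215) and bleeding rats (−1.04, 0.0471). Msrb1, a selenoprotein that reduces oxidised methionine, was higher in S-RBC rats than in naive (1.18, limma adjusted p = 0.00646), PHx (1.06, 0.0323) and bleeding rats (1.03, 0.0275), and higher in HAES than in naive (1.01, 0.0195) and PHx rats (0.90, 0.0412). Txn2, the mitochondrial thioredoxin, was higher than in naive rats in F-RBC (0.81, limma adjusted p = 0.0123) and S-RBC rats (0.66, 0.0427). Prdx4, the peroxiredoxin of the endoplasmic reticulum, was lower than in naive rats after PHx (−0.78, limma adjusted p = 0.0412) and in F-RBC rats (−0.93, 0.00362).

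Of 14 measured detoxifying and exporting targets, 6 passed. Akr7a3, the aflatoxin aldehyde reductase, was lower than in naive rats in all 5 groups with PHx, by −1.35 to −1.83 on the log2 scale (limma adjusted p from 0.00274 to 0.0413). Its intensity was 280 to 596 in naive rats and 80 to 200 in the others, so the naive arrays were the highest for Akr7a3 and the lowest for Nqo1. Ptgr1, which reduces alkenals, was lower than in naive rats in bleeding (−1.73, limma adjusted p = 0.0204) and S-RBC rats (−1.62, 0.0101). Gstm1, a glutathione transferase, was lower in S-RBC than in F-RBC rats (−0.84, limma adjusted p = 0.0481), and it was the only gene of the 70 that passed between stored and fresh cells. That call passed in 0 of 6 fits that left out 1 array, and its adjusted p was 0.0626 after median centring. Gstm1 was also higher in F-RBC than in bleeding rats (0.81, limma adjusted p = 0.0338). Near-identical transferases can share its probes, so the value is uncertain as to the gene. Akr1b8, counted among the 6 for S-RBC against PHx rats, was at an intensity of 8.55 to 10.2 in PHx rats and at most 1.18 in S-RBC rats, below the median of every array, so no fold is given.

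Of 8 genes for heme and iron, Hmox1 and Slc40a1 passed. Hmox1, the heme oxygenase that is also an NRF2 target, was lower in HAES than in PHx (−2.20, limma adjusted p = 0.00834) and bleeding rats (−1.78, 0.0303), the same comparisons in which Gclc and Gclm were higher. Its intensity was 36.9 to 60.7 in HAES rats, 158 to 500 in PHx rats and 126 to 294 in bleeding rats. It was 63.8 to 174 in naive rats, 51.2 to 94.1 in F-RBC rats and 116 to 226 in S-RBC rats, so HAES rats overlapped F-RBC rats. The call against bleeding rats passed in 1 of 6 fits that left out 1 array. Slc40a1, the iron exporter ferroportin, was higher in F-RBC than in naive rats (0.93, limma adjusted p = 0.0272), and higher than in bleeding rats in F-RBC (1.23, 0.0157) and HAES rats (0.97, 0.0421). Of the 39 calls named here for list genes, 8 passed in all 6 fits that left out 1 array, those of Tkt in S-RBC and HAES, Sod2, Msrb1, Akr7a3 and Ptgr1 in S-RBC and Prdx4 in F-RBC against naive rats, and Hmox1 in HAES against PHx rats, and all 39 kept their sign. Another 6 passed in none of these fits, those of Cth and Slc40a1 in HAES against bleeding rats, Msrb1 in S-RBC and HAES and Akr1b8 in S-RBC against PHx rats, and Gstm1 in S-RBC against F-RBC rats.

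**Figure D4:**
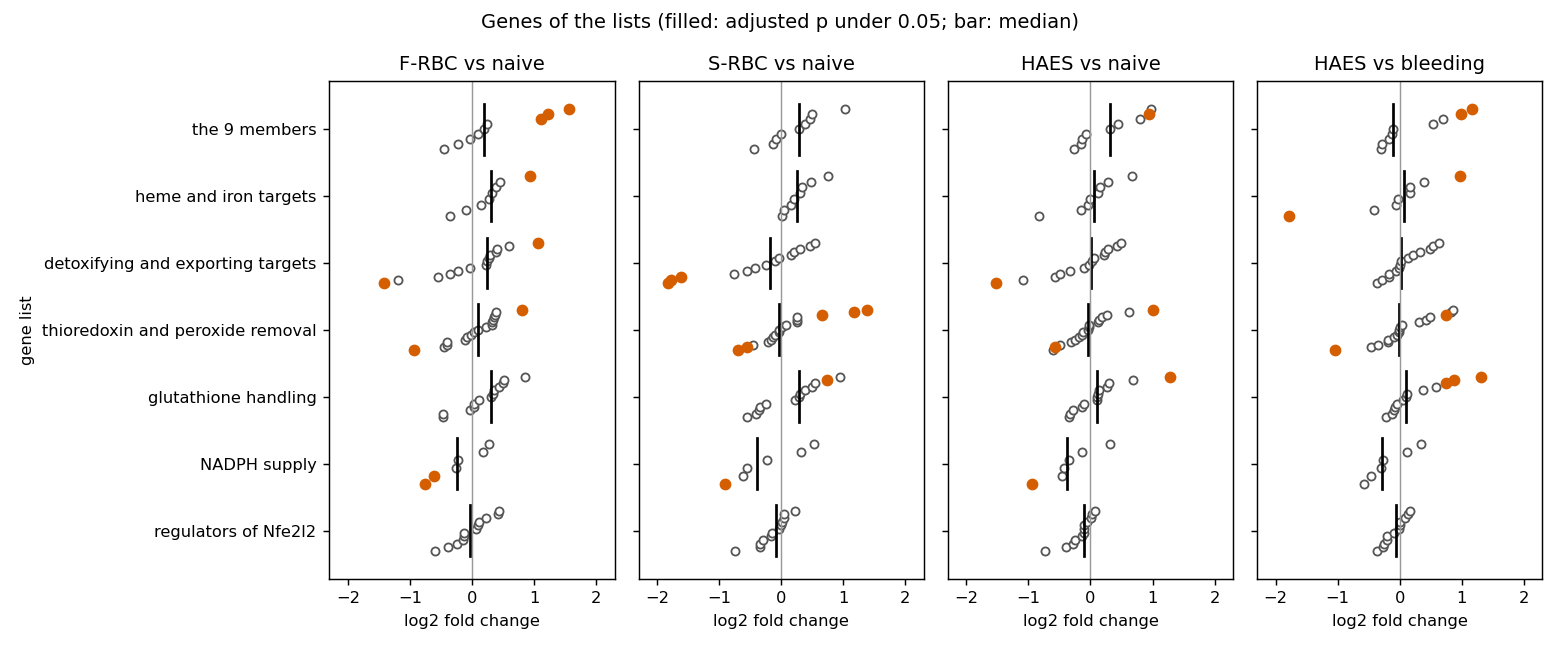
Log2 fold change (horizontal axis) of each measured gene of the 6 lists and of the 9 genes in 4 comparisons, with 1 circle per gene, filled where the limma adjusted p was under 0.05, and a bar for the median. The NADPH genes that passed lie to the left and the glutathione genes that passed to the right, and the regulators of NRF2 hold no filled circle.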

How the data were processed

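Rat liver RNA of 18 rats was measured on 18 arrays. The deposited table gives linear intensity values, 1e-05 to 8721, which the authors had summarised from the probes of each probe set. Per the labels, Affymetrix Power Tools and PLIER were used, while the methods add RMA. Which summary was deposited, its version and the genome build were not given in the sources used here. Array medians differed, which arrays scaled to one distribution would not show. The number of arrays limits the precision.

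Of the probe sets, 18511 carried 1 symbol in the array annotation, 575 several and 17599 none here, and 18394 gene identifiers matched RefSeq, which changed 0 symbols. Group means of log2(intensity + 16) were fitted in R 4.3.3 by limma 3.58.1, without further normalization, with a variance trend. The fit had 12 residual degrees of freedom, and the prior added 4.79 (median). Benjamini-Hochberg adjustment ran over all 36685 probe sets within each of 15 comparisons. The pipeline was tested on simulated arrays of this layout, with changes planted in HAES rats in probe sets brighter than the median. Against bleeding rats 53 of 100 planted log2 changes of 1 and 96 of 100 of 2 passed, beside 7 unplanted probe sets. In these simulated arrays, whose noise was independent between arrays and probe sets, many changes of log2 1 thus failed to pass. The share that would pass in the measured arrays was not tested. Correlations, motifs and figures used Python 3.11.15, numpy 2.4.6, scipy 1.17.1, pandas 2.3.3 and matplotlib 3.10.9.

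The members and the lists were chosen with earlier results of these data known. Named are all 9 genes, up to 4 genes a list among those past the threshold, by the F test, and the 3 genes of most like pattern outside the lists, predicted genes left out. The like genes of Txnrd1, Srxn1, Slc7a11 and Prdx1 are named only at the first place. Of the 77 listed genes, 70 were matched to a probe set with a single symbol, and 11 cell type markers were not matched. The rats of a group are biological replicates. Replicate numbers did not pair the arrays.

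Alternative settings were median centring, quantile normalization, an offset of 1 or 64, no dim probe sets, the replicate number as a block, a fit of just the 2 groups concerned, the methods' t-test (one-way analysis of variance over 6 groups), adjustment over all 15 comparisons together, and each array left out singly. Chosen only after seeing the data were the difference of all groups with PHx from naive rats for Nqo1, given without a test, and both scalings and the left-out arrays for the named list genes.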

Additional observations from a re-analysis of the deposited data

How the results depend on the processing

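All 9 calls among these genes kept their direction under every alternative that was run. Of the counts of genes past the threshold, those between bleeding and PHx, S-RBC and PHx, S-RBC and bleeding rats and among the 3 resuscitated groups were 0 throughout. Quantile normalization gave 1 gene in PHx, bleeding and S-RBC against naive rats (Gclm) and in F-RBC against PHx rats (Osgin1), each with 0 otherwise, and 0 in place of 1 in F-RBC against bleeding rats. Median centring gave 1 in bleeding against naive rats, and 0 in HAES against naive and in F-RBC against bleeding rats, each 1 otherwise. An offset of 1 gave 1 in bleeding (Gclm) and in S-RBC (Nqo1) against naive rats, and an offset of 64 gave 0 in HAES against naive and F-RBC against bleeding rats. Without dim probe sets the count was 1 in bleeding and in S-RBC against naive rats, 1 in F-RBC against PHx rats and 2 (Gclc and Osgin1) in F-RBC against bleeding rats. Fitting only the groups compared gave 1 (Nqo1) in bleeding against naive rats, and 0 in HAES against naive and F-RBC against bleeding rats. Adjusting over all 15 comparisons together gave 1 in bleeding against naive and in F-RBC against PHx rats and 0 in HAES against naive rats. The t-test of the methods, without the spread shared between probe sets, gave 0 in F-RBC and HAES against naive, HAES against PHx, and F-RBC and HAES against bleeding rats, and 2 genes (Gclc and Gclm) over the 6 groups in place of 4. Where no reason is stated, the cause was not tested.

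Leaving out 1 array gave 0 to 1 genes in PHx, bleeding and S-RBC against naive rats and in F-RBC against PHx rats, in each of which PHx or naive replicate 1 was the array whose absence gave 1. It gave 1 to 3 in F-RBC against naive rats, 0 to 0 in HAES against naive rats, 1 to 2 in HAES against PHx rats, 0 to 1 in F-RBC against bleeding rats and 0 to 2 in HAES against bleeding rats. Over the 6 groups it gave 2 to 5, with 2 without F-RBC replicate 2 or 3. Among stored against fresh red cells the direction of 3 small differences turned, Nqo1 to 0.08 without F-RBC replicate 1 (−0.45 to 0.08 over the left-out arrays), Srxn1 to −0.10 without S-RBC replicate 2 (−0.10 to 0.16), and Txnrd1 to 0.02 after median centring. Nqo1 in F-RBC against naive rats was also lost under quantile normalization (limma adjusted p = 0.0598) and median centring (0.0531). Both scalings kept the sign of all 39 named list calls and kept 37 (quantile) and 35 (centring) past the threshold. Centring moved the median of all probe sets in F-RBC against naive rats from 0.14 to −0.04, and the split of calls from 1796 higher and 468 lower to 475 and 953.

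Same-numbered arrays of different groups did not deviate together, with 45 correlations of −0.25 to 0.29 (median −0.04) and 3 of 18 arrays correlating best with their own number, so the numbers were not taken as pairs. With the replicate number as a block the count was 0 in place of 1 in HAES against naive and in F-RBC against bleeding rats, and over the 6 groups it was 3 in place of 4, without Nfe2l2, as it also was after median centring. No gene had another probe set with the same single symbol, so that alternative gave no value. Slc7a11 lies near the array medians and fell out with the dim probe sets, so it has no value under that setting.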
